A study of Mus musculus with 4 samples.

Results

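The genes described here are 10 core genes of the Notch pathway in mouse otic progenitor cells and in neurons made from them. They are the receptor genes Notch1, Notch2 and Notch3, the ligand genes Dll1, Dll3, Jag1 and Jag2, and the target genes Hes1, Hes5 and Hey1. They were chosen by symbol from the 49997 gene symbols of the count tables, and all 10 were found, each with at least 1 count in every library. The cells are iMOPs, an immortalized line of multipotent otic progenitors, labelled wild-type in both groups, and the series title concerns the chromatin remodeller CHD7 and the boundaries of topologically associating domains. Proliferating iMOPs grew in DMEM/F12 with B27, carbenicillin and bFGF at 20 ng/ml. The iMOP-derived neurons grew in Neurobasal medium with N21, L-glutamine and K03861, a kinase inhibitor, at 1 µM. Each group has 2 libraries of stranded total RNA from this single line, numbered as biological replicates 1 and 2, and both replicate 2 libraries are marked as set 2. What separates the replicates (a culture, a day) is not given, so p-values measure only the spread between these libraries.

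Notch signalling passes between touching cells. A ligand of the Delta or Jagged family on one cell binds a Notch receptor on its neighbour, the receptor is cut by ADAM proteases and then by the gamma-secretase complex, and its freed intracellular part joins the DNA-binding protein RBPJ in the nucleus. RBPJ and its partners then switch on HES and HEY genes, whose products repress proneural genes and the Delta ligands. In the developing inner ear the pathway is known for setting apart prosensory and supporting cells from hair cells, and for holding back neuron formation in the otic epithelium.

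Of the 10 genes, Hes5 differed most between libraries, and it is shown here by its upstream sequence because RBPJ is known to act there. In RefSeq on GRCm38.p6, the 250 bases before the start of Hes5 lie at chr4:154960673-154960922 on the + strand. The capitals mark the RBPJ core GTGGGAA, or its reverse complement TTCCCAC, wherever a search of both strands found it.

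Hes5 upstream: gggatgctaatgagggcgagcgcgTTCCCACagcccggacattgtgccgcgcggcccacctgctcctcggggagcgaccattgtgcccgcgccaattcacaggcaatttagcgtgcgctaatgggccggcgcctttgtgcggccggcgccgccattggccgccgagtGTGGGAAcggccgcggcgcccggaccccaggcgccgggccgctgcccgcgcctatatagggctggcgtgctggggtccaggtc

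One match lies on the gene's own strand with its first base 83 bases before the start, and one lies on the other strand 226 bases before it. Of all 32851 windows of this length in the RefSeq table, 5.42% hold the core on either strand. Of the 10 genes, 8 have such a window (9 windows, since Dll1 has 2), and the Hes5 window is the 1 of these 9 that holds the core. The N box CACNAG, a site that HES proteins bind, was found in the windows of Notch1, Notch2 and Notch3 and in 36.7% of all windows. A match is a run of letters and says nothing of binding in these cells. Hes1 and Hey1 have no entry in the table.

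The total count per library was 7446361 to 14484011. The 18S ribosomal RNA row took 53.3% and 59.4% of it in proliferating and neuron replicate 1, and 75.0% and 76.1% in replicate 2. This left 2595578 to 3850766 counts, so members with few counts carry wide counting errors. Levels are given as CPM, counts scaled by library size and TMM factors, and differences as log2 values of neurons against proliferating cells. The TMM factors were 1.64 and 1.26 in proliferating and neuron replicate 1, and 0.713 and 0.678 in replicate 2. Both the 18S share and the factors thus differed by replicate number. The part of the 18S share in differences between same-numbered libraries was not tested. The summed level of 11 neuron markers was 161.9 and 348.8 CPM in proliferating replicates 1 and 2, and 202.3 and 365.2 CPM in neuron replicates 1 and 2, of which Tubb3 was the most uneven part (19.1, 193.6, 28.8 and 104.6 CPM). The other 10 summed to 142.8 and 155.3 CPM in proliferating cells and to 173.5 and 260.6 CPM in neurons, higher in both neuron libraries. Map2, the largest part of that sum, had 93.9, 92.3, 121.5 and 140.6 CPM, and Elavl4 had 7.56, 12.2, 17.7 and 38.0 CPM. Comparing replicates of the same number, these were the only 2 of the 10 tested neuron markers higher in neurons both times. Stmn2 was lower both times, and the other 7 differed in direction. The neuron marker Nefm had at most 1 count in any library. Of the 9 progenitor markers, the otic genes Pax2 and Pax8 were at 0 in all 4 libraries, Gata3 had at most 2 counts, and the summed level of the list was lowest in neuron replicate 2, at 266.8 CPM, against 399.7 to 1256 CPM in the others.

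The design sets neurons beside the progenitors they came from, to find what differs after differentiation. Base medium, supplements, bFGF and K03861 changed together with the cell state, so their effects cannot be told apart from it. The filter on low counts kept 9 of the 10 genes, all but Dll3. In edgeR's quasi-likelihood test, 0 of the 9 were called higher and 0 lower at a Benjamini-Hochberg adjusted p-value under 0.05, where 0% of the 12783 tested genes were called in each direction. Without adjustment, 0 of the 9 had a p-value under 0.05, against 3.43% of all tested genes. DESeq2 called 0 of the 9 as well, where 12 of the 12783 tested genes were called higher and 48 lower. It gave 1 of the 9 an unadjusted p-value under 0.05, where 125 of all tested genes were higher and 352 lower at that level. The median log2 fold change was 0.023 over the 9 genes and 0.024 over all tested genes. With 2 libraries against 2, an exact permutation test of a single value cannot go below a two-sided p of 0.333, so the values are described by library and by replicate pair.

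**Figure D1:**
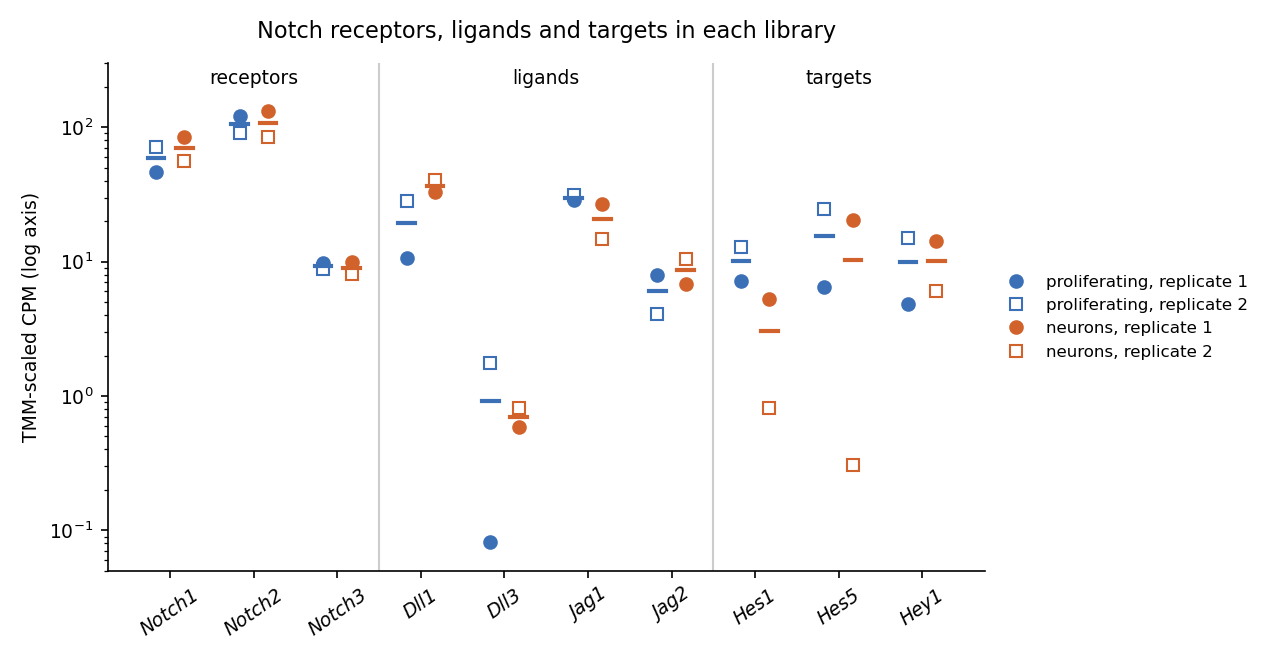
Level of each of the 10 genes in each library, as TMM-scaled CPM on a log axis. Points are single libraries and short bars are group means (n = 2). The neuron libraries lie above both proliferating libraries for Dll1 and below them for Jag1 and Hes1, and Hes5 in neuron replicate 2 lies at 0.306 CPM.

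The receptor genes had the smallest range of group differences, with log2 fold changes of -0.054 to 0.25, and none passed the test. Notch1 encodes a receptor widely used by neural and otic progenitors, and it lies on chromosome 2 at 26457903 to 26516663 on the - strand (GRCm38, GENCODE M21). It was counted 566 and 530 times in proliferating replicates 1 and 2 and 1002 and 549 times in neuron replicates 1 and 2, which gives 46.5, 71.7, 84.3 and 55.97 CPM. The groups overlapped, with neuron replicate 1 highest and proliferating replicate 1 lowest. Group means (SD, n = 2 libraries) were 59.1 ± 17.8 CPM for proliferating cells and 70.1 ± 20.0 CPM for neurons, and edgeR put the log2 fold change at 0.25 (SE 0.48, adjusted p-value 0.9998).

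Notch2, a receptor of similar build, lies on chromosome 3 at 98013527 to 98150361 on the + strand. It was counted 1483 and 671 times in the proliferating libraries and 1564 and 829 in the neuron libraries, or 121.8, 90.8, 131.6 and 84.5 CPM. Both replicate 1 libraries were above both replicate 2 libraries, and the groups overlapped. The log2 fold change was 0.023 with SE 0.46 (edgeR adjusted p-value 0.9998), and it was -0.25 with library size alone as the scaling.

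Notch3, known for its part in vascular smooth muscle and in some neural progenitors, lies on chromosome 17 at 32120820 to 32166852 on the - strand. It was counted 120 and 65 times in the proliferating libraries and 118 and 79 in the neuron libraries, or 9.86, 8.80, 9.93 and 8.05 CPM. In relative terms these 4 values were the closest together of the 10 genes, and the log2 fold change was -0.054 with SE 0.47 (edgeR adjusted p-value 0.9998). Summed over the 3 receptors the level was 178.2 and 171.4 CPM in the proliferating libraries and 225.8 and 148.5 CPM in the neuron replicates, a 1.52-fold span over the libraries.

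Among the ligands, Dll1 was higher in both neuron libraries. Dll1 encodes a Delta ligand that nascent neurons display to their neighbours, and it lies on chromosome 17 at 15367354 to 15376872 on the - strand. It was counted 129 and 210 times in the proliferating libraries and 393 and 397 in the neuron libraries, or 10.6, 28.4, 33.1 and 40.5 CPM. Both neuron libraries were above both proliferating libraries, and proliferating replicate 1 was well below the rest. Group means (SD, n = 2 libraries) were 19.5 ± 12.6 CPM for proliferating cells and 36.8 ± 5.24 CPM for neurons, 1.88-fold higher in neurons. On the log2 scale edgeR gave a difference of 0.92 (SE 0.57, adjusted p-value 0.9998), which the gap between the proliferating replicates, 1.42, exceeded. The difference was 0.34 with proliferating replicate 1 left out and 1.79 with proliferating replicate 2 left out.

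Jag1, a Jagged ligand that marks the prosensory region of the ear, lies on chromosome 2 at 137081456 to 137116644 on the - strand. It was counted 348 and 232 times in the proliferating libraries and 317 and 145 in the neuron libraries, or 28.6, 31.4, 26.7 and 14.8 CPM. Both neuron libraries were below both proliferating libraries, but neuron replicate 1 was close to them. Its log2 fold change was -0.53, SE 0.49 (edgeR adjusted p-value 0.9998), and it was -0.17 with neuron replicate 2 left out and -1.06 with neuron replicate 1 left out.

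Jag2, the other Jagged ligand, known in the ear from developing hair cells, lies on chromosome 12 at 112907819 to 112929776 on the - strand. It was counted 97 and 30 times in the proliferating libraries and 81 and 102 in the neuron libraries, or 7.97, 4.06, 6.81 and 10.4 CPM. The lowest and the highest value both came from replicate 2. This gave a log2 fold change of 0.504, SE 0.55 (edgeR adjusted p-value 0.9998), and it was -0.027 with library size alone.

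Dll3, a divergent Delta protein that is known to act inside the cell and not as an activating ligand, lies on chromosome 7 at 28293553 to 28302238 on the - strand. It was counted 1 and 13 times in the proliferating libraries and 7 and 8 in the neuron libraries. It did not pass the filter, and a difference was not detectable at this depth. The 4 ligands summed to 47.2 and 65.7 CPM in the proliferating libraries and to 67.1 and 66.5 CPM in the neuron replicates, a 1.42-fold span.

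The share of Dll1 among the counts of Dll1 and Jag1 does not depend on how libraries are scaled. It was 27.0% in proliferating replicate 1 (95% Clopper-Pearson interval 23.1% to 31.3%) and 55.4% in neuron replicate 1 (51.6% to 59.1%). It was 47.5% in proliferating replicate 2 (42.8% to 52.3%) and 73.2% in neuron replicate 2 (69.3% to 76.9%). Within each replicate pair the neuron share was higher by more than counting error, while proliferating replicate 2 and neuron replicate 1 were near each other. No molecular identifiers are named in the labels, so reads are not taken as separate molecules, and these intervals, like all others here, cover counting error only.

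Of the 5 such shares computed, that of Hey1 among the counts of Hey1 and Hes1 was likewise higher in neurons in both pairs. It was 40.1% (32.1% to 48.5%) and 53.7% (46.6% to 60.6%) in the proliferating libraries and 72.8% (66.6% to 78.5%) and 88.1% (77.8% to 94.7%) in the neuron libraries. In pair 2 Hey1 itself was lower in the neuron library (14.9 and 6.01 CPM), and Hes1 was lower still (12.9 and 0.816 CPM). The higher share there is thus no gain of Hey1. The share of Notch1 among Notch1 and Notch2 was 27.6% and 44.1%, then 39.0% and 39.8%. That of Hes5 among Hes5 and Hes1 was 47.3% and 65.6%, then 79.4% and 27.3%, and that of Jag2 among Jag2 and Jag1 was 21.8% and 11.5%, then 20.4% and 41.3%. The last 3 shares differed in direction between the pairs. Dll1 and Jag1 were also the ligands that differed from the proliferating libraries in 1 direction each, so their share adds no separate evidence.

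**Figure D2:**
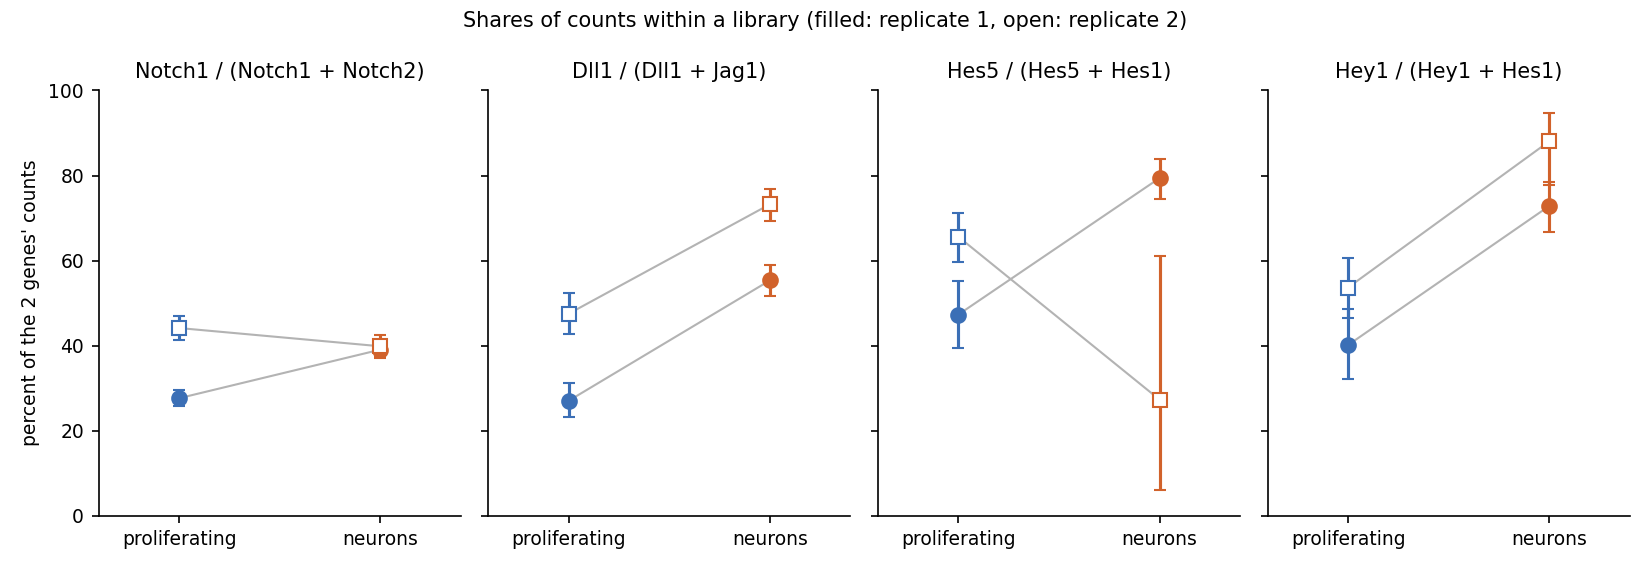
Share of one gene in the summed counts of a pair of genes within each library, in percent, with 95% Clopper-Pearson intervals. Filled points are replicate 1, open points replicate 2, and lines join a replicate pair. The Dll1 share (27.0% to 55.4% and 47.5% to 73.2%) and the Hey1 share (40.1% to 72.8% and 53.7% to 88.1%) are higher in neurons in both pairs, while the Notch1 and Hes5 shares are higher in neurons in pair 1 and lower in pair 2.

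Summed by role, the target genes varied most, although in relative terms Hey1 (4.85 to 14.9 CPM) varied less than the ligand gene Dll1 (10.6 to 40.5 CPM). Hes1 encodes a repressor that keeps progenitors undifferentiated, and it lies on chromosome 16 at 30064384 to 30067796 on the + strand. It was counted 88 and 95 times in the proliferating libraries and 63 and 8 in the neuron libraries, or 7.23, 12.9, 5.30 and 0.816 CPM. Both neuron libraries were below both proliferating libraries, and neuron replicate 2 was far below the other 3. Group means (SD, n = 2 libraries) were 10.04 ± 3.98 CPM for proliferating cells and 3.06 ± 3.17 CPM for neurons. For this gene edgeR gave -1.69 on the log2 scale (SE 0.82, unadjusted p-value 0.0762, adjusted 0.9998). The value was -0.92 with neuron replicate 2 left out and -3.64 with neuron replicate 1 left out.

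Hes5 encodes a repressor used by neural progenitors and by supporting cells of the ear, and it lies on chromosome 4 at 154960923 to 154962371 on the + strand. It was counted 79 and 181 times in the proliferating libraries and 243 and 3 in the neuron libraries, or 6.49, 24.5, 20.4 and 0.306 CPM. Neuron replicate 1 was thus close to the highest library and neuron replicate 2 was the lowest, so the groups overlapped. The neuron replicates lay 6.06 apart on the log2 scale, and the log2 fold change of -0.57 had an SE of 1.34 (edgeR adjusted p-value 0.9998). It was 0.405 without neuron replicate 2 and 0.68 without proliferating replicate 2. Without neuron replicate 1 it was -5.64 (edgeR adjusted p-value 0.0282, against 0.61 to 1 over the other alternatives run), the single case in which any of the 9 genes was called, with neuron replicate 2 alone standing for its group. In bulk RNA, fewer cells with a transcript and less of it per cell cannot be told apart.

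Hey1, a related repressor with roles in the ear's prosensory cells and in vessels, lies on chromosome 3 at 8663359 to 8667256 on the - strand. It was counted 59 and 110 times in the proliferating libraries and 169 and 59 in the neuron libraries, or 4.85, 14.9, 14.2 and 6.01 CPM. Proliferating replicate 2 and neuron replicate 1 were alike and above the other libraries. Between the groups the log2 fold change was 0.048, SE 0.69 (edgeR adjusted p-value 0.9998). Summed over the 3 targets the level was 18.6 and 52.3 CPM in the proliferating libraries and 39.96 and 7.14 CPM in the neuron replicates, a 7.32-fold span, with both extremes in replicate 2.

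By replicate pair, the genes split. In pair 1 (replicate 1 of both groups), 6 of the 9 tested genes were higher in neurons and 3 lower, with a median difference of 0.11 on the log2 CPM scale against a median of -4.2e-05 over all tested genes. In pair 2, 2 were higher and 7 lower, with a median of -0.36 against 0.067. The sign was the same in both pairs for 3 of the 9 genes (33.3%), against 54.3% of all tested genes. With library size alone Notch2 and Notch3 were lower in pair 1 as well, so that 4 of the 9 genes were higher there, and 5 (55.6%) kept 1 sign in both pairs against 53.1% of all tested genes. With TMM scaling Dll1 was the 1 gene higher in both pairs, where 28.8% of all tested genes were, and Jag1 and Hes1 were the 2 genes lower in both, where 25.5% were. These directions of Dll1, Jag1 and Hes1 held in both pairs under each of the 3 scalings of the ratios. The groups did not overlap for these 3 genes (33.3% of the 9), a share not far from the 27.4% of all tested genes (12.9% with neurons higher and 14.5% with neurons lower). With library size alone the groups of Jag1 overlapped and 2 genes, Dll1 and Hes1, stayed apart, against 20.2% of all tested genes. With library size without the 18S row, Dll1, Jag1 and Hes1 stayed apart, against 29.2%. In each of the 9 genes, the log2 gap between the replicates of at least one group was larger than the gap between the group means. The share of all tested genes with such a gap was not computed, so this is not read as a trait of the 9.

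Several of these pair differences exceeded counting error. In pair 1 Dll1 was 3.12-fold higher in the neuron library (95% exact interval of the count ratio 2.55 to 3.84), Hes5 was 3.15-fold higher (2.43 to 4.11), Hey1 was 2.93-fold higher (2.17 to 4.01) and Notch1 was 1.81-fold higher (1.63 to 2.01). In pair 2 Dll1 was 1.42-fold higher (1.20 to 1.69) and Jag2 was 2.56-fold higher (1.69 to 3.99). Both pairs thus shared Dll1 among the genes above counting error, and the share of all tested genes above it in both was not computed. Jag1 (0.933, interval 0.798 to 1.09) and Hes1 (0.733, 0.522 to 1.02) were lower in the neuron library of pair 1, but with TMM scaling these intervals held 1.

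On the other side of pair 2, Hes5 was 80.1-fold lower in the neuron library (27.0 to 392), Hes1 was 15.8-fold lower (7.69 to 37.6), Hey1 was 2.48-fold lower (1.79 to 3.46), Jag1 was 2.12-fold lower (1.72 to 2.63) and Notch1 was 1.28-fold lower (1.14 to 1.45). Notch1, Hes5 and Hey1 therefore pointed in opposite directions in the 2 pairs, each by more than counting error. The share of all tested genes that do so was not computed, so this is not read as particular to these genes. Of the 9 tested genes, 5 were higher and 0 lower by more than counting error in pair 1, against 20.2% and 20.4% of all tested genes. With library size alone, 4 were higher and 4 lower in pair 1, against 6.89% and 43.2%. In pair 2 there were 2 higher and 5 lower with TMM scaling, against 27.9% and 24.2%. These intervals compare single libraries, not the conditions. The fifth gene of pair 1 is Notch2, whose 1.08-fold difference (1.01 to 1.16) became 0.829 with library size alone, a scaling that multiplies all pair 1 ratios by 0.768. Within pair 2, 11 of 12783 tested genes had a difference as low as that of Hes5, itself included, and 57 had one as low as that of Hes1.

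**Figure D3:**
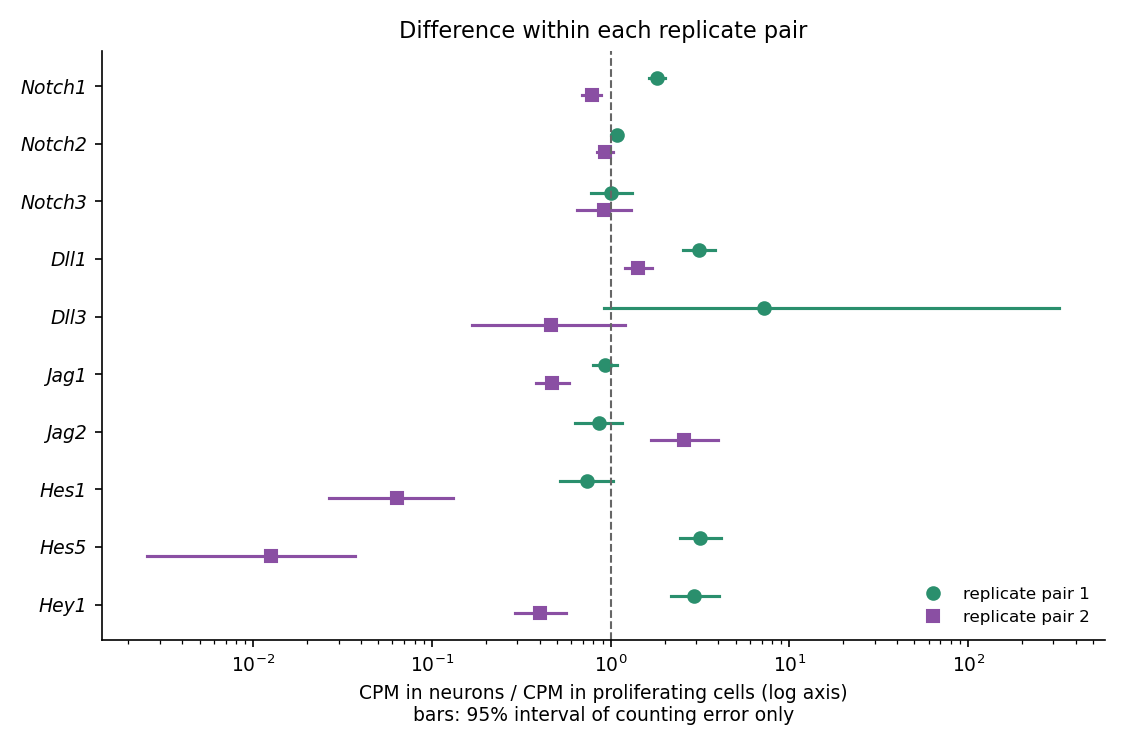
Ratio of CPM in neurons to CPM in proliferating cells within replicate pair 1 (circles) and pair 2 (squares), on a log axis, with 95% exact intervals of counting error. Dll1 lies above 1 in both pairs (3.12 and 1.42), while Hes5 lies at 3.15 in pair 1 and far below 1 in pair 2.

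Glia and progenitor markers were summed beside the target genes. Of the 9 glia markers 4 were tested, and the list summed to 159.97 and 110.05 CPM in the proliferating libraries and to 68.3 and 18.2 CPM in the neuron replicates, lower in both neuron libraries and lowest in neuron replicate 2. The astrocyte filament gene Gfap had 181 and 89 counts in proliferating cells against 1 and 2 in neurons, with a log2 fold change of -6.47 (edgeR unadjusted p-value 2.59e-05, adjusted 0.11). The glutamate transporter gene Slc1a3 had 92.4, 48.3, 47.4 and 16.1 CPM in the same order. The radial glia gene Fabp7 was counted 272 and 362 times in the proliferating libraries and 211 and 9 in the neuron libraries, and the progenitor factor Sox9 had 496 and 429, then 320 and 41. Progenitor markers did not share 1 direction. Of the 5 tested, Sox9 and Vim were lower in neurons in both pairs, Eya1 was higher in both, and Sox2 and Nes were higher in pair 1 and lower in pair 2. The myelin gene Mbp and the Schwann cell factor Sox10 had at most 2 counts in any library. Proliferating replicate 1 stood apart for the astrocyte channel gene Aqp4, with 356 counts against 2 to 31 in the others. The part of these cells in the Notch target values was not tested.

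The other lists held little. Of the 6 hair cell markers 2 were tested. Pou4f3 and Otof were at 0 in all 4 libraries, and the proneural hair cell factor Atoh1 was counted 17 and 18 times in the proliferating libraries and 1 and 91 in the neuron libraries. The hair cell list summed to 23.9 and 18.95 CPM in proliferating cells and to 4.63 and 22.1 CPM in neurons. The 6 fibroblast markers summed to 7.14 to 17.2 CPM, nearly all of it Pdgfra, with Col1a2 and Dcn at 0 in all libraries. The 5 endothelium markers summed to 1.02 to 2.22 CPM, so the vessel cells in which Notch genes are also known to act had their defining markers near 0.

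The genes whose levels over the 4 libraries were most like those of a receptor, a ligand and a target were searched among 4453 tested genes with a mean of at least 10 CPM. Likeness was the largest absolute difference between centred log2 CPM values over the 4 libraries, with smaller values more alike. For Notch1 they were Tet3 (0.039), Gm22973 (0.088) and Enc1 (0.094), and 94 genes lay within 0.25, so this shape was common. For Dll1 they were Mex3a (0.32), Psmd4 (0.34) and n-TMcat11 (0.37), with 0 genes within 0.25. For Hes1 they were Sparc (0.069), Sox9 (0.203) and Ptn (0.34), with 2 genes within 0.25. Sparc, a matrix protein gene, was counted 376 and 411 times in the proliferating libraries and 261 and 42 in the neuron libraries.

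Levels of different genes were compared per kilobase of exon in GENCODE M21, as CPM per kilobase averaged over the 4 libraries. Notch2 came first at 9.94 (range over libraries 7.84 to 12.2), then Hes5 at 9.49 (0.224 to 17.98) and Dll1 at 6.67 (2.51 to 9.59). Notch1 at 4.54, Jag1 at 4.35, Hes1 at 3.22 and Hey1 at 3.06 followed. The ranges of all these neighbours overlapped. The range of Hey1 (1.48 to 4.56) lay above that of Notch3, at 1.13 (0.996 to 1.23), which in turn overlapped that of Jag2 at 1.05. Dll3 was last at 0.285. By group mean Notch2 ranked first in neurons, and Hes5 did in proliferating cells (11.4 against 9.86 for Notch2). That first place came from proliferating replicate 2 (17.98 against 8.42). In proliferating replicate 1 Hes5 was at 4.76 and Notch2 at 11.3.

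The deposited RPKM values rest on other lengths, 0.667 times the exon length for Notch1, 2.51 times for Dll1 and 4.80 times for Jag2. With them the order changed to Notch2, Notch1, Hes5, Dll1, Hes1, Hey1, Jag1, Notch3, Dll3 and Jag2, so Notch2 kept the first place and the places of the others depend on the length used. With these lengths Notch2 also ranked first in proliferating cells, at a mean of 10.1 against 3.73 for Hes5.

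The rest of the pathway was described from 52 further genes, of which 41 were tested. None of the 41 passed the edgeR test (0 called, and 0 at an unadjusted p-value under 0.05), and DESeq2 called 0 as well, with 2 at an unadjusted p-value under 0.05. Over all 12783 tested genes edgeR called 0, with 3.43% at an unadjusted p-value under 0.05. DESeq2 called 12 higher and 48 lower, with 125 higher and 352 lower at an unadjusted p-value under 0.05. In neurons 21 were higher and 20 lower, with a median log2 fold change of 0.022. The split was 11 and 30 with library size alone, which moved the median of all genes from 0.024 to -0.27. In pair 1 their median was -0.017 and in pair 2 -0.18, and 17 of the 41 had opposite signs in the 2 pairs.

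Of the other receptors and ligands, the 2 that were tested were lower in both neuron libraries. Dll4, a Delta ligand known from vessels and from retinal and spinal progenitors, was counted 30 and 52 times in the proliferating libraries and 1 and 16 in the neuron libraries, a log2 fold change of -2.48 with SE 1.10 (edgeR adjusted p-value 0.9998). Dner, a neuronal Delta-like membrane protein, had 60 and 127 counts and then 8 and 47, with -2.02 and SE 0.95 (edgeR adjusted p-value 0.9998). Unlike Dll1, both were thus lower in neurons in both pairs. Notch4, the endothelial receptor, had 5 or 6 counts in each library, and Dlk1 was at 0 in all 4.

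The machinery that makes and cuts the receptor showed no shared direction. Of the 8 tested genes of receptor cleavage, 6 were higher and 2 lower in neurons, and 4 had opposite signs in the 2 pairs. Adam10, the main protease of the first activating cut, was counted 390 and 86 times in the proliferating libraries and 314 and 254 in the neuron libraries. Of the 5 glycosyltransferase genes, 5 kept 1 sign in both pairs, 2 higher and 3 lower in neurons, where 54.3% of all tested genes kept 1 sign. With library size alone 3 of the 5 did, all of them lower, against 53.1%. Among these, Lfng, a Fringe enzyme that tunes which ligand a receptor answers to, had 79 and 57 counts and then 62 and 11.

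Of the 11 tested genes of ligand endocytosis and turnover, 8 were higher and 3 lower. Mib1, the ubiquitin ligase that ligands need in order to signal, was counted 1810 and 346 times in the proliferating libraries and 3381 and 1180 in the neuron libraries, a log2 fold change of 1.05 with SE 0.67 (edgeR adjusted p-value 0.9998). It was higher in both pairs, but proliferating replicate 1 was above neuron replicate 2 in CPM (148.7 against 120.3), so the groups overlapped. Dtx4, a Deltex ubiquitin ligase, had 288 and 369 counts, then 288 and 55, with neuron replicate 2 again the lowest library.

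In the nucleus, Rbpj, the DNA-binding partner of the cut receptor, was counted 210 and 68 times in the proliferating libraries and 293 and 217 in the neuron libraries, or 17.3, 9.20, 24.6 and 22.1 CPM. Both neuron libraries were above both proliferating libraries, with a log2 fold change of 0.82 and SE 0.502 (edgeR adjusted p-value 0.9998). With library size alone the groups overlapped, since neuron replicate 2 (14.98 CPM on that scale) was below proliferating replicate 1 (28.2). Of the 12 tested nuclear effectors and co-repressors, 3 were higher and 9 lower in neurons. The coactivator gene Maml1 had 90 and 95 counts, then 144 and 82, and Tle4, a Groucho co-repressor that HES proteins recruit, had 185 and 208, then 164 and 77.

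Of the 7 further HES, HEY and NRARP genes, 3 were tested and Hes2 and Heyl were at 0 in all libraries. Nrarp, a feedback inhibitor that Notch itself induces, was counted 65 and 68 times in the proliferating libraries and 158 and 45 in the neuron libraries. Its difference was 1.28 in pair 1 and -0.98 in pair 2 on the log2 CPM scale. Hes5, Hey1 and Notch1 had the same signs under each scaling of the ratios. Notch2 and Notch3 had them with TMM scaling only, at ratios of 1.08 and 1.01 in pair 1. Hes1 was lower in both pairs. Of all 12783 tested genes, 6391 were higher in pair 1 with TMM scaling. In pair 2, 3684 of these were higher too and the rest were lower. Hes6, which promotes neuron formation and counteracts HES1, had 90 and 92 counts and then 104 and 146, with 0.24 in pair 1 and 0.25 in pair 2.

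**Figure D4:**
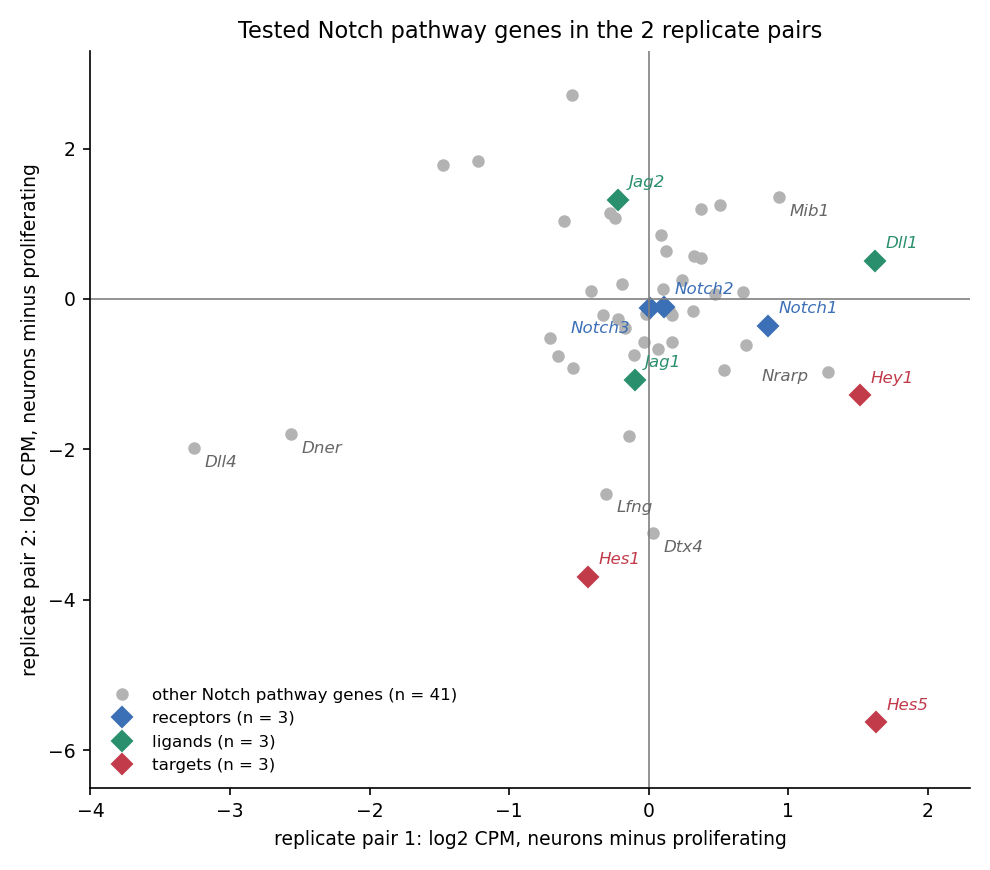
Difference in log2 CPM (neurons minus proliferating cells) of the 50 tested pathway genes in replicate pair 1 (horizontal) and pair 2 (vertical). Grey points are the 41 further pathway genes and diamonds the 9 tested receptors, ligands and targets. Hes5 and Hey1 lie to the right of and below 0, Dll1 lies to the right of and above 0, and the receptors lie between -0.36 and -0.10 in pair 2.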

How the data were processed

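The authors deposited raw counts per gene symbol and RPKM values for each of 4 libraries. Per the labels' protocols, each rRNA depletion started from 500 ng, and 8 stranded libraries were pooled and read as pairs of 150 bases. HISAT2, SAMtools, featureCounts, DESeq2 and deepTools 3.4.3 and the build mm10 are named in the submitters' processing notes, without roles. The strand setting, the annotation and the treatment of reads with several matches are not given in the sources used here. GENCODE M21 places other genes over Notch1, Notch2, Notch3, Dll1, Jag2 and Hes5, so how reads there were divided is uncertain. The authors' RPKM values equal the deposited counts divided by the column total, 18S row included, and by 1 length per gene.

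Groups and replicate numbers come from the titles. The test was edgeR 4.0.16 in R 4.3.3 (TMM, filterByExpr with a minimum count of 10 and total of 15, estimateDisp, glmQLFit, glmQLFTest, design with the group only), fitted to 12783 genes in the 4 libraries, two-sided, with Benjamini-Hochberg adjustment. It was run on simulated data, with no result given here. The common biological coefficient of variation, the relative spread between replicates, was 0.4561 in these libraries. The size of difference that the test can detect at that spread is not given. CPM uses TMM-adjusted library sizes. Pair differences use log2 CPM (prior count 2), and pair ratios carry exact conditional binomial intervals. Both replicate 2 titles say set 2, and deviations of same-numbered libraries from their group means correlated across genes (r = 0.33, a description), so the numbers were taken to pair the libraries. The members and lists were chosen with earlier results of these data known. Any of the 10 members, the pathway and marker lists, and the 3 genes nearest in profile to Notch1, Dll1 and Hes1 could be named. Alternatives were RLE factors, library size alone, DESeq2 1.42.0, other gene filters, the fit without the 18S row, the replicate block, leaving out single libraries, and limma 3.58.1 on log2 RPKM with pseudocounts of 1 and 0.1. Other scalings of the pair ratios and group overlaps, and marker sums without 1 gene, were added after seeing the data. Python 3.11.15 with scipy 1.17.1 gave the remaining values.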

Additional observations from a re-analysis of the deposited data

How the results depend on the processing

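None of the 9 tested genes was called under RLE factors, library size alone, DESeq2, no gene filter, the CPM filter, the fit without the 18S row, either RPKM scale or the replicate block. The CPM filter kept 12783 genes and gave the same values as the reported fit, so it adds no separate check. Over those 9 settings the log2 fold change ranged from 0.601 to 1.07 for Dll1, from -0.75 to -0.45 for Jag1, from -2.17 to -1.26 for Hes1 and from -1.80 to -0.12 for Hes5. Library size alone, which moved the median of all genes from 0.024 to -0.27, turned Notch2 to -0.25 and Jag2 to -0.027. Notch2 was -0.203 on log2(RPKM + 1) and -0.22 on log2(RPKM + 0.1), where Hey1 was -0.083. With the replicate block, the paired fit, Dll1 was 1.07 (unadjusted p-value 0.0442, edgeR adjusted 0.78) and Hes1 -1.99 (0.0311, adjusted 0.72). In that fit 345 of the 12783 tested genes were higher and 445 lower at an unadjusted p-value under 0.05. The block changed no call of the 9 genes. Over all genes, 0 were called higher and 0 lower in the reported fit, 12 and 48 by DESeq2 (1240 adjusted p-values not given), 41 and 122 without a gene filter, and 0 higher with 2, 1, 2 and 3 lower under library size alone, log2(RPKM + 1), log2(RPKM + 0.1) and the replicate block. The cause was not tested.

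Leaving out 1 library leaves a lone library that is assumed to vary like the other group. The log2 fold change then ranged from -0.12 to 0.59 for Notch1, -0.37 to 0.31 for Notch2, -0.25 to 0.088 for Notch3, 0.34 to 1.79 for Dll1, -1.06 to -0.17 for Jag1, 0.11 to 1.05 for Jag2, -3.64 to -0.92 for Hes1, -5.64 to 0.68 for Hes5 and -0.75 to 1.06 for Hey1. Calls over all genes ranged from 1 to 37 higher and from 9 to 90 lower, and calls among the 9 genes from 0 to 1 lower and 0 higher. The 1 call was Hes5 without neuron replicate 1. The other scalings of the pair ratios turned Notch2 (0.829 and 0.952) and Notch3 (0.773 and 0.887) below 1 in pair 1 and turned no other gene. Counts were few for Dll3 in every library (1 to 13), and for Hes1 (8) and Hes5 (3) in neuron replicate 2. That library kept 3461544 counts without the 18S row. Proliferating replicate 1 kept 3474760, with 88 counts of Hes1 and 79 of Hes5.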
